A study of Homo sapiens with 6 samples.

Results

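To determine whether relatives of USP39 moved when USP39 was knocked down, the genes of the ubiquitin-specific protease (USP) family were analysed in RNA-seq libraries of A2780 cells. Members were taken by name, as the gene symbols made of USP and a number, with or without a final X or Y. USP39 itself and USP18 were left out, and the read counts of all transcripts of a gene were summed. This gave 44 members of the 16571 gene symbols in the table, with 58 of its 21368 transcripts. A2780 is an established human ovarian cancer cell line, described in the labels as serous. All cells had been infected with lentivirus. The 3 pGIPZ-NC libraries carried the negative control of the pGIPZ hairpin vector and the 3 shUSP39 libraries a hairpin against USP39. The study lists 2 hairpins, and the labels do not say which one these libraries carried, so that effects of the knockdown and of a hairpin on other genes cannot be told apart. The study's methods describe lines selected with puromycin, and the design text calls the libraries biological triplicates.

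USP enzymes are cysteine proteases that remove ubiquitin from proteins or trim ubiquitin chains, and they form the largest group of human deubiquitinases. Their targets include histones, DNA repair factors, signalling proteins and regulators of the proteasome and of membrane traffic. USP39 carries a USP fold without the catalytic residues and a zinc finger of the ubiquitin-binding (UBP) type, and it belongs to the spliceosome's U4/U6.U5 tri-snRNP. Some catalytically active members are also tied to splicing: USP4 and USP15 remove ubiquitin from spliceosomal PRPF proteins, and USP49 acts on histone H2B.

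The hairpins are shown first, because their match to a relative of USP39 bears on how the values of that relative are read. Both 21-base target sequences, as the sense strand of the messenger RNA, were compared with every position of the coding transcripts of the members in GENCODE release 44 on GRCh37, without gaps. Each matched USP39 over all 21 bases. In the 44 members the best site matched 12 to 15 bases of sh-USP39-1 and 11 to 16 bases of sh-USP39-2. The longest uninterrupted match anywhere in a member's coding transcripts, often outside its best site, ran over 6 to 10 and 6 to 11 bases. The most similar site was in USP43 for sh-USP39-2. For sh-USP39-1, the best sites had 15 matching bases, in 5 members (USP24, USP32, USP33, USP47 and USP51). The targets and 5 sites are given below 5′ to 3′. Capitals mark bases equal to the target.
sh-USP39-1 target: GATTTGGAAGAGGCGAGATAA
USP24, coding, across the junction of exons 44 and 45, minus strand, chr1:55565523-55566512: GATTTtcAAGAtGtGgaATAA
USP53, 5′ untranslated part of exon 2, plus strand, chr4:120138735-120138755: GATTTGGAgaAGagacaATAA
USP4, coding, exon 16, minus strand, chr3:49323570-49323590: ccTaTGGAAcAGctGAcATAA
sh-USP39-2 target: GTTGCCTCCATATCTAATCTT
USP43, 3′ untranslated part of exon 15, plus strand, chr17:9632448-9632468: GggGtCTCCATATCTAgaCTT
USP53, coding, exon 11, plus strand, chr4:120188496-120188516: GTTGtCTCCAaATgcAtTCga
The USP4 site matched 14 bases, and the USP53 sites matched 14 bases of either hairpin. Such matches were common: the best site had 14 matching bases in 17 of the 44 members for sh-USP39-1 and in 11 for sh-USP39-2. Sites were ranked by the total of matching bases, and the place of the matches within the hairpin was not weighed. These matches describe letters only, and binding of a hairpin to a member was not tested.

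The libraries held 28294819 to 32939264 counts. Levels are given as CPM, which are counts scaled to 1e+06 per library. Over genes, which are not independent replicates, the correlation of log2 levels (Pearson's r) was 0.988 to 0.990 within groups and 0.968 to 0.969 across them. Whether the libraries came from separate cultures is known only from the design text, so p-values measure the spread between these libraries. USP39 was not analysed here, and the labels could not be checked against it. The number of genes with a count was 15446 and 14890 in shUSP39 replicates 2 and 3, against 12662 to 12819 in the other 4 libraries, and values from shUSP39 replicate 1 alone are therefore given beside the counts of members. Of the ovarian carcinoma markers, PAX8 had 0 to 6 counts and EPCAM 1 to 6 counts in a library. MUC16 had 1 to 6 counts except for 150 and 71 in shUSP39 replicates 2 and 3. The summed level of the 6 ovarian markers in the table was 22.2 to 25.4 CPM in the control libraries and 32.6 to 39.5 CPM after knockdown, of which KRT18 made up nearly all (22.4 and 32.9 CPM on average, higher). KRT8 was lower, with 28, 37 and 26 counts and then 3, 0 and 0. That of 4 fibroblast markers was 1133 to 1197 CPM and 454 to 474 CPM, with 3 of the 4 lower, mostly through COL1A2. Leukocyte and endothelial markers summed to at most 1.73 CPM. Of 18 interferon-stimulated genes, 16 were tested, 14 were higher and none was lower, with summed levels of 294 to 313 CPM and 997 to 1011 CPM. In RNA of a whole culture, fewer cells with a transcript and less of it per cell cannot be told apart. The part of these shifts in the values of the USP genes was not tested.

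Most USP genes changed little, and the changes that passed the test were mainly small falls. Of the 44 members, 36 passed the filter on low counts and were tested with edgeR's quasi-likelihood test, adjusted by the Benjamini-Hochberg method over all 10695 genes tested. At an adjusted p under 0.05, 12 members were lower in shUSP39 (33.3%), where 17.5% of all genes were lower, and 3 were higher (8.33%), where 16.1% of all genes were higher. With a change beyond 2-fold as well, 1 member passed, USP53, where 6.81% of all genes passed in either direction. The median log2 fold change was -0.12 over the members and 0.01 over all genes tested, and the median size of the log2 fold change was 0.23 and 0.22. With shUSP39 replicate 1 alone against pGIPZ-NC, an alternative added after the data were seen, 5 members were lower (USP11, USP24, USP32, USP34 and USP40) and 1 was higher (USP53), where 10.8% and 8.96% of all genes were lower and higher.

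**Figure D1:**
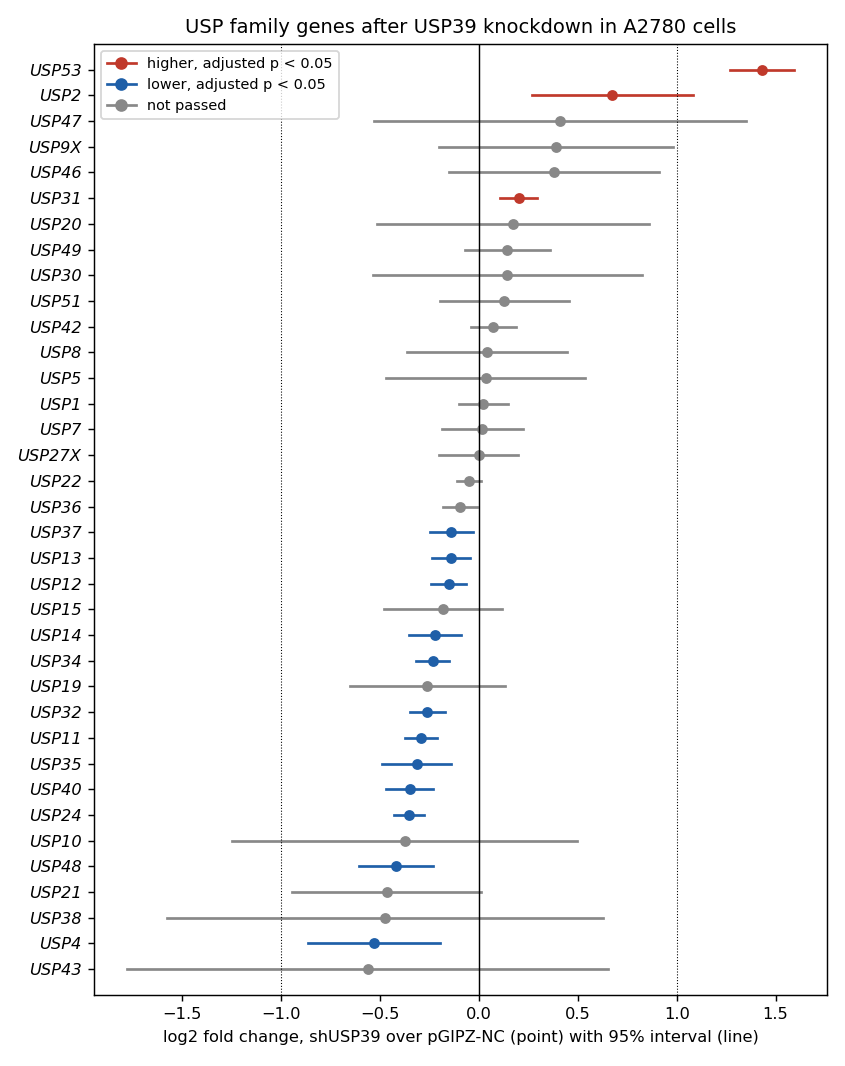
The log2 fold change of each of the 36 tested USP genes, shUSP39 over pGIPZ-NC, with 3 libraries per group. Points are estimates, lines are 95% intervals, dotted lines mark a 2-fold change, and the point of USP53 alone lies beyond them.

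The level of a gene sets how small a change the test can pass, so the counts were also read by level. At a mean of 20 CPM or more, 11 of 18 members were lower and 2 higher, beside 31.0% and 20.1% of the 4461 genes tested at that level. Of the 18 members below 20 CPM, 2 passed, USP4 (lower) and USP2 (higher). The shares of all genes below 20 CPM were not counted. At any level, 17.5% of all genes were lower and 16.1% higher. In 30 of the 36 members the 95% interval of the fold change lay within 2-fold in either direction, and in 22 within 1.5-fold. In 15 members all shUSP39 libraries lay below all pGIPZ-NC libraries, as they did in 22.5% of all genes, and in 6 all lay above, as in 21.7% of all genes. In the other 15 the groups overlapped. Of the members whose groups did not overlap, 6 missed the adjusted p, among them USP21 with a log2 fold change of -0.47 and an interval from -0.95 to 0.01.

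**Figure D2:**
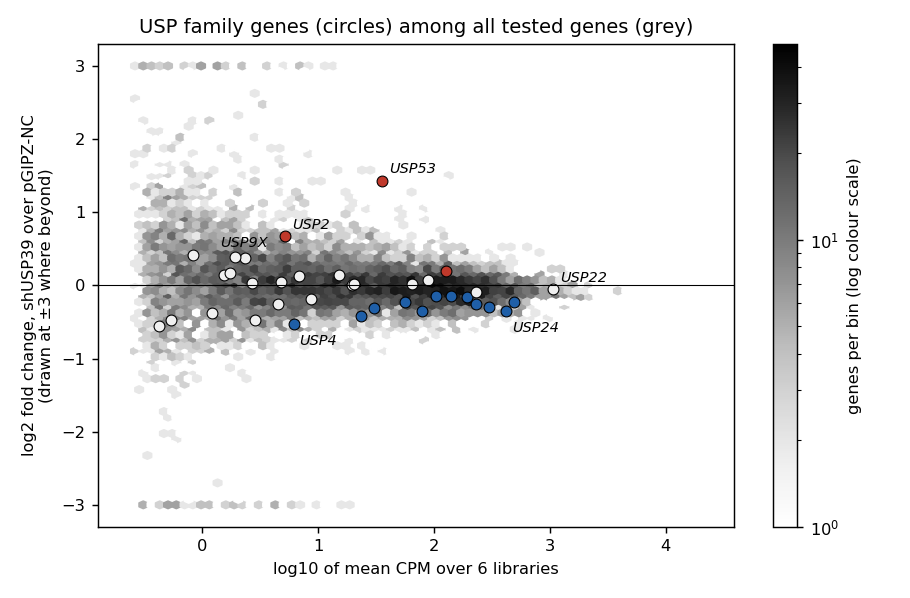
Log2 fold change (vertical axis) against the log10 of the mean CPM (horizontal axis, log scale) for all 10695 tested genes as grey bins, darker where there are more genes, and the 36 tested USP genes as circles. Red circles were higher, blue circles were lower and white circles did not pass an adjusted p of 0.05, and USP53 stands above the band of genes at its level.

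As a sum over all 44 members, USP messenger RNA summed to 3966 ± 38.9 CPM in the control libraries and to 3602 ± 61.7 CPM after knockdown (mean ± SD, n = 3 each), a change of -9.18%. The groups did not overlap, at 3923 to 3999 CPM and 3533 to 3652 CPM. Most of the difference lay in a few abundant genes. The difference of the means, shUSP39 minus pGIPZ-NC, was -101 CPM in USP24, -78.7 CPM in USP34, -60.3 CPM in USP11 and -41.5 CPM in USP32. USP22 alone made up 27.5% of the sum in pGIPZ-NC.

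Levels between genes were compared per kilobase of the longest annotated coding transcript, as CPM per kb in pGIPZ-NC (n = 3). USP22, the ubiquitin protease of the SAGA coactivator complex, stood highest at 210 CPM per kb ± 2.24 (SD), followed by USP11 at 98.4 CPM per kb ± 2.58 (SD). USP12, USP34 and USP24 came next at 45.6, 45.2 and 43.3 CPM per kb, and the libraries of USP12 overlapped with those of USP34, and those of USP34 with those of USP24, but those of USP24 not with those of USP36. USP36 at 39.5 and USP32 at 36.2 CPM per kb did not overlap with each other. USP13, USP1 and USP42 closed the first 10 at 18.4, 17.9 and 16.8 CPM per kb, each overlapping with its neighbour. Of these 10, 6 were lower in shUSP39 and 4 did not pass (USP22, USP36, USP1 and USP42). Of all genes at 20 CPM or more, 31.0% were lower and 20.1% higher. The counts may leave out reads that transcripts of a gene share. The 11 tested members for which RefSeq lists 1 messenger RNA had a median level of 201 CPM in pGIPZ-NC and the 25 with several had 4.87 CPM, so levels of the latter may be too low. Of the 11, 8 were lower and none higher, and of the 25, 4 were lower and 3 higher. Since these sets differ in level, 2 pairs of shares of all genes stand beside them. At any level 17.5% were lower and 16.1% higher, and at 20 CPM or more 31.0% and 20.1%.

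USP53 rose most. It is a junction-associated member, long described as catalytically inactive. It had 661, 622 and 506 counts in the pGIPZ-NC libraries and 1621, 1654 and 1520 in the shUSP39 libraries. Every shUSP39 library lay far above every pGIPZ-NC library. The mean was 19.3 CPM ± 1.41 (SD, n = 3) and 52.0 CPM ± 1.78 (SD, n = 3), which gave a 2.70-fold rise, or 1.43 as log2 fold change (SE 0.08, adjusted p = 5.65e-14, edgeR). With single libraries left out in turn the log2 fold change stayed between 1.38 and 1.49, and it was 1.39 in shUSP39 replicate 1 alone. The gene lies on the plus strand of chromosome 4 at 120133742 to 120216673 (GRCh37).

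USP2, which removes ubiquitin from MDM2 and cyclin D1, had 164, 89 and 117 counts in pGIPZ-NC and 207, 208 and 175 in shUSP39. The groups did not overlap, but the lowest shUSP39 library was close to the highest pGIPZ-NC library, and pGIPZ-NC replicate 2 was low. The log2 fold change was 0.67 (SE 0.20, adjusted p = 0.0092, edgeR). Without pGIPZ-NC replicate 2 it was 0.45 with an adjusted p of 0.087, and in shUSP39 replicate 1 alone 0.69 with an adjusted p of 0.083. USP31, a little studied member, had 3783, 3854 and 3328 counts in pGIPZ-NC and 4272, 4242 and 4029 in shUSP39. Its rise was small but tight, from 118 CPM ± 0.447 to 136 CPM ± 2.55 (SD, n = 3 each), or 0.20 as log2 fold change (SE 0.05, adjusted p = 0.0011, edgeR). In shUSP39 replicate 1 alone its adjusted p was 0.074.

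**Figure D3:**
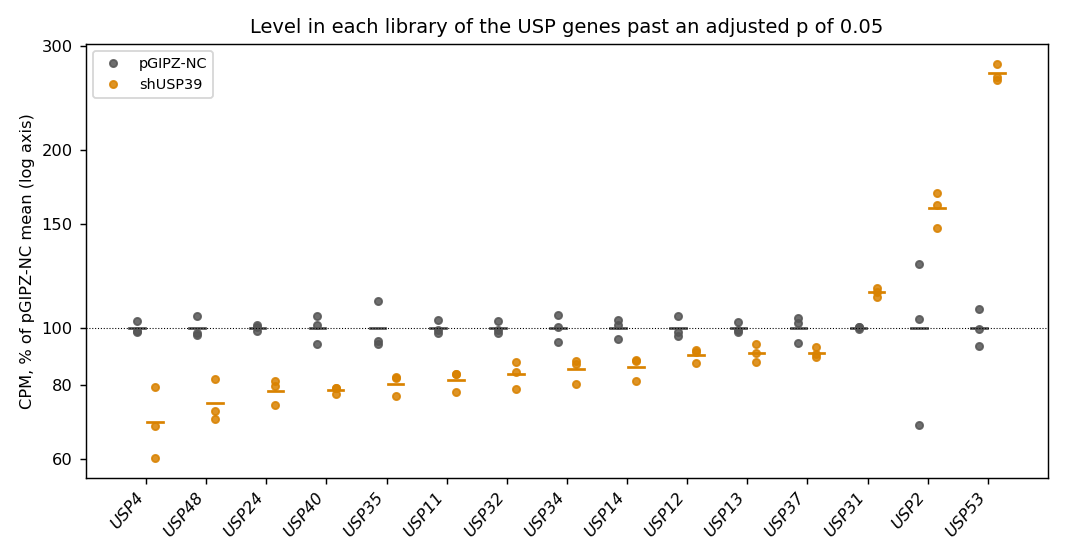
CPM of the 15 USP genes past an adjusted p of 0.05 in each library, as a percentage of the pGIPZ-NC mean on a log axis; points are libraries and bars are group means. The groups do not overlap in any of the 15 genes, and the rise of USP53 exceeds every fall.

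The 4 members that fell with the highest CPM, not scaled to length, act in nuclear, signalling and membrane pathways. USP24, a very large member linked to p53 and the DNA damage response, had 15063, 15264 and 13034 counts in pGIPZ-NC and 11952, 11642 and 10228 in shUSP39. After scaling, the groups stood apart with little spread, at 468 CPM ± 5.64 and 367 CPM ± 18.3 (SD, n = 3 each). Its log2 fold change was -0.35 (SE 0.04, adjusted p = 2.6e-08, edgeR). USP11, which acts in double-strand break repair and on TGF-beta signalling, had 10373, 10985 and 9086 counts and then 8794, 8394 and 7552, which is -0.29 on the log2 scale (SE 0.04, adjusted p = 1.1e-06). USP34, which stabilises axin in Wnt signalling, had 17680, 17180 and 14065 counts and then 14679, 14192 and 12518, or -0.23 as log2 fold change (SE 0.04, adjusted p = 4.8e-05). USP32, a membrane-bound enzyme of the endosomal system, had 8243, 8101 and 6940 counts and then 7038, 6470 and 5853, or -0.26 as log2 fold change (SE 0.04, adjusted p = 2.3e-05). In each of the 4 all shUSP39 libraries lay below all pGIPZ-NC libraries after scaling, and each was called in shUSP39 replicate 1 alone.

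USP40 was in the same range. Its counts were 2839, 2682 and 2603 in pGIPZ-NC and 2226, 2078 and 2058 in shUSP39, with no overlap. The log2 fold change was -0.35 (SE 0.06, adjusted p = 2.3e-05, edgeR). USP48, an enzyme of the histone H2A residues that BRCA1 ubiquitinates, had 900, 856 and 739 counts and then 705, 595 and 558, or -0.42 as log2 fold change (SE 0.09, adjusted p = 5.7e-04). In shUSP39 replicate 1 alone its log2 fold change was -0.29 with an adjusted p of 0.11. USP35 had a mean level of 33.3 CPM in the control libraries and 26.8 CPM after knockdown, with -0.31 as log2 fold change (SE 0.08, adjusted p = 0.0046), and without pGIPZ-NC replicate 1 its adjusted p was 0.052.

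The remaining abundant members that passed fell by less. USP14, bound to the proteasome, changed by a log2 value of -0.22 (SE 0.06, adjusted p = 0.0084), and USP12, an enzyme activated by WDR48 and WDR20, by -0.15 (SE 0.04, adjusted p = 0.0068). USP13, a zinc finger member close to USP5, changed by -0.14 (SE 0.05, adjusted p = 0.018), and USP37, which acts on cyclin A, by -0.14 (SE 0.05, adjusted p = 0.041). In all 4 the groups did not overlap. These calls depended on single libraries or on the scaling: without shUSP39 replicate 3 the adjusted p was 0.056 for USP14, and without shUSP39 replicate 2 it was 0.052 for USP12. For USP13 it was 0.12 under upper-quartile scaling and for USP37 0.17. With no such scaling factors, only library sizes, it was 0.055 and 0.096.

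Members tied to splicing were read next. USP4, which deubiquitinates PRPF3 with SART3 as its adaptor, had 228, 232 and 210 counts in pGIPZ-NC and 184, 151 and 129 in shUSP39. The shUSP39 libraries were all lower and varied more among themselves. Its log2 fold change, -0.53 (SE 0.16, adjusted p = 0.012, edgeR), was the largest fall that passed, 1.44-fold, and without shUSP39 replicate 3 the adjusted p was 0.068. In shUSP39 replicate 1 alone the log2 fold change was -0.33 with an adjusted p of 0.35. USP15, the PRPF31 enzyme, had 244, 343 and 270 counts and then 266, 264 and 224, which overlapped (log2 fold change -0.18, adjusted p = 0.38). USP49 as a whole gene did not pass (log2 fold change 0.14, adjusted p = 0.32). Of the 3 spliceosomal proteins these enzymes act with, PRPF31 was lower by a log2 fold change of -0.37 (SE 0.04) and SART3 of -0.15 (SE 0.04), while PRPF3 had a log2 fold change of 0.07.

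Of the members with a zinc finger of the UBP type, the domain USP39 also carries, 9 were in the table and 7 were tested (USP5, USP13, USP20, USP22, USP27X, USP49 and USP51). USP13 was lower and the other 6 did not pass, beside 17.5% of all genes lower and 16.1% higher. The group was not tested against these shares. USP22 had 34453, 35205 and 31116 counts in pGIPZ-NC and 33172, 32423 and 31229 in shUSP39. Its scaled levels did not overlap, but the difference was only -0.05 on the log2 scale, with an interval from -0.11 to 0.01 (adjusted p = 0.19). USP27X, a close relative of USP22, had 619, 646 and 565 counts and then 678, 537 and 608, with an interval of its log2 fold change from -0.20 to 0.20. For USP5, the enzyme of unanchored ubiquitin chains, at 68 to 105 counts, the interval ran from -0.47 to 0.54, and for USP20 from -0.52 to 0.86, so that a change of moderate size was not detectable at this depth. USP22, USP27X and USP51 resemble one another in sequence, as do USP12 and USP46, and how reads that fit several copies were counted is not stated, so their split may be uncertain.

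Grouped by domain or role, the falls were spread over several pathways. The counts below stand beside 17.5% of all genes lower and 16.1% higher, or 31.0% and 20.1% at 20 CPM or more, and no group was tested against them. Of the 6 tested members with a DUSP domain, a fold named after these enzymes, 4 were lower (USP4, USP11, USP32 and USP48). The median of the log2 fold change was -0.28 over the 6 and 0.01 over all genes. Of 5 members that act in Wnt, TGF-beta and Hippo signalling, 3 were lower (USP4, USP11 and USP34). Of 4 tested DNA repair members 2 were lower (USP11 and USP48), and USP1, the enzyme of FANCD2 and PCNA, had 1998, 2155 and 1832 counts and then 2058, 2089 and 1903. Of 6 members linked to p53 or MDM2, 2 were lower (USP4 and USP24) and 1 higher (USP2), and USP7, the best known MDM2 enzyme, had an interval from -0.19 to 0.22. Among 5 tested enzymes of histones H2A and H2B none passed. Of the 3 proteasome and free-chain members USP13 and USP14 were lower. Among the 3 tested members linked to MYC stability USP37 was lower, while USP36, a nucleolar enzyme that stabilises MYC, had a log2 fold change of -0.10 with an adjusted p of 0.073. USP42, also linked to p53, had a log2 fold change of 0.07 (adjusted p = 0.34). Of 5 tested members of the endosome and membrane traffic, USP2 was higher and USP32 lower, and of the 3 members bound by WDR48 USP12 was lower. USP30 of the mitochondrion and USP19 of the endoplasmic reticulum did not pass, at 37 to 68 and 102 to 173 counts in a library.

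The other 8 members did not pass the filter, with at most 18 counts in any library. USP26 had 0 counts in every pGIPZ-NC library and 3 and 1 counts in shUSP39 replicates 2 and 3, and USP29, another germline member, had 2 counts in shUSP39 replicate 2 only. USP50 had at most 4 counts and USP28 at most 4. USP16 had 0 to 3 counts in pGIPZ-NC and 13, 0 and 1 in shUSP39. USP25 had 2 to 11 counts, USP54 2 to 17, and USP33 8 to 18 in pGIPZ-NC against 4 to 8 in shUSP39, with no test for any of them. USP50 overlaps USP8 on the opposite strand, and since use of strand is not stated, their reads may not be told apart.

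Transcript usage, the split of a gene's counts over its transcripts, could be tested for 6 members with edgeR's diffSpliceDGE. USP49 passed, 1 of 6, beside 3.69% of the 1628 genes tested. Its transcript NM_018561.4 had 8, 20 and 4 counts in pGIPZ-NC and 31, 42 and 41 in shUSP39, while NM_001286554.1 had 444, 417 and 424 and then 473, 440 and 424. The minor transcript was higher in every shUSP39 library, and the major one was level. The share of NM_018561.4 was 2.43% ± 1.91 (SD, n = 3) in pGIPZ-NC and 7.89% ± 1.51 (SD, n = 3) in shUSP39 (adjusted p = 0.023 over all genes). By a Simes test, which combines the p-values of the transcripts, the adjusted p was 0.065. It was between 0.093 and 0.18 without pGIPZ-NC replicate 1 or 3 or shUSP39 replicate 2 or 3, so the call rested on each of these libraries.

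For USP2, whose transcripts encode forms with different N-termini, NM_171997.2 had 44, 39 and 47 counts in pGIPZ-NC and 112, 115 and 99 in shUSP39. NM_004205.4 had 120, 50 and 70 counts and then 95, 93 and 76. The rise of the gene was thus in NM_171997.2, 2.50-fold on average, while the libraries of NM_004205.4 overlapped. The share of NM_171997.2 was 36.9% ± 8.94 (SD, n = 3) and 55.3% ± 1.23 (SD, n = 3), but the usage test did not pass (adjusted p = 0.073). With transcripts of at least 10 counts in every library its adjusted p was 0.047. Both transcripts of USP48 were lower on average, by -0.44 for NM_001032730.1 and -0.41 for NM_032236.6 on the log2 scale. In USP15 the log2 fold changes were 0.09 for NM_001252078.1 and -0.29 for NM_001252079.1, and usage did not pass (adjusted p = 0.59).

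**Figure D4:**
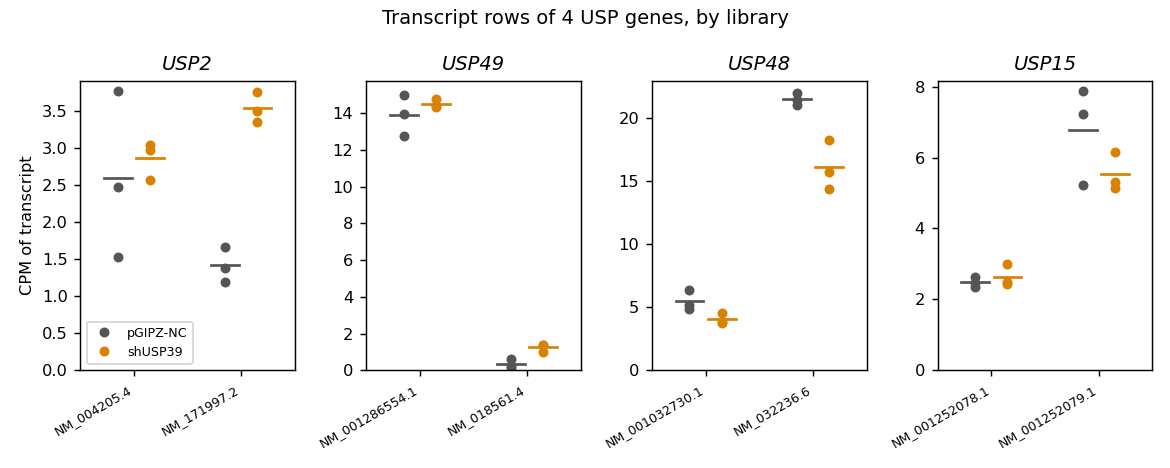
CPM of single transcripts of USP2, USP49, USP48 and USP15 in each library, with points for libraries, bars for group means and axes from 0. NM_171997.2 of USP2 and NM_018561.4 of USP49 are higher in every shUSP39 library, while the other transcript of each gene overlaps between groups.

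Promoters of the members were also looked at, grouped by the result of the expression test. RefSeq (GRCh38.p14) gave 300 bases, from 250 before to 50 after the start, for 35 of the 44 members, among them 9 of the 12 that were lower and 2 of the 3 that were higher. Motifs were searched on both strands, in the first promoter listed for each member. The GC box GGGCGG was in 8 of the 9, in both of the 2 and in 14 of 17 tested members that did not pass, beside 45.0% of all 35116 promoters in the table. The CCAAT box was in 2 of 9, 1 of 2 and 6 of 17, beside 34.6% of all, and the ETS motif CCGGAAG in 2 of 9, 0 of 2 and 5 of 17, beside 10.3% of all. The letters TTTCNNTTT of the interferon-stimulated response element were in 0 of 9, 0 of 2 and 1 of 17, beside 10.5% of all. The shares of all count every listed promoter, whether or not its gene was tested here, so they cover a set unlike the members. Base composition was not matched either. The median share of G and C bases was 58.7% over all promoters, and the members ran from 37.7% (USP50) to 84.3% (USP12). Those printed below held 68.3% (USP53) and 74.7% (USP34). A further listed promoter of USP7 held 4 GC boxes, while its first held no GC box. These shares were not tested. The promoter of USP53, which rose most, and that of USP34, the lower member with the highest CPM not scaled to length, are given 5′ to 3′ on the gene's strand, with the matches in capitals.
USP53, plus strand, chr4:119212463-119212762: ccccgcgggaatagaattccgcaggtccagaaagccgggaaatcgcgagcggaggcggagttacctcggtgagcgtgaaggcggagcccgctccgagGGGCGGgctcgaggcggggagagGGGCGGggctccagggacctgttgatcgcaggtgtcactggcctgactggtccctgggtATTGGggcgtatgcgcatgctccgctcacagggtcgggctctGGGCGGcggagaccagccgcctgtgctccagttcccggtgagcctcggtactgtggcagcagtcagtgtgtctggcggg
USP34, minus strand, chr2:61471038-61471337: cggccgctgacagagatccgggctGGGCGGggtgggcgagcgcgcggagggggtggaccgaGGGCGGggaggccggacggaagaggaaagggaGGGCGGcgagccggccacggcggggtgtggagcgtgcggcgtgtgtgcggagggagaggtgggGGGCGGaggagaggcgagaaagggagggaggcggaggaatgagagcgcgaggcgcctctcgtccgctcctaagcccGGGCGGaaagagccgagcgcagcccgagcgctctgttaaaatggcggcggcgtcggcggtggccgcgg
USP53 had 3 GC boxes and 1 CCAAT box on either strand and USP34 had 5 GC boxes. A match is a description of the letters and not a site.

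The other deubiquitinases, of the UCH, OTU, Josephin, JAMM, MINDY and related families, were read beside the USP genes. Of 30 tested, 4 were higher and 7 lower, beside 16.1% of all genes higher and 17.5% lower. The median of their log2 fold changes was 0.01, as it was over all genes, and these shares were not tested. OTUD1, a deubiquitinase linked to interferon signalling, had 65, 84 and 46 counts in pGIPZ-NC and 191, 250 and 271 in shUSP39, with no overlap and 1.89 as log2 fold change (SE 0.21, adjusted p = 5.8e-08, edgeR). YOD1, an enzyme of the VCP pathway, was higher by 0.47 (SE 0.13) on the same scale. UCHL3 changed by -0.53 (SE 0.18), STAMBPL1 by -0.33 (SE 0.06) and OTUB2 by -0.32 (SE 0.09). Of 10 tested partner proteins of USP enzymes 1 was higher and 2 were lower, beside the same shares of all genes. WDR20, the activator of USP12 and USP46, was higher by 0.38 (SE 0.11), and GMPS, a partner of USP7, changed by -0.12 (SE 0.03). Among the ubiquitin and E1 genes, UBA6 and UBB changed by -0.18 and -0.14 (SE 0.05 each).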

How the data were processed

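RNA-seq was performed by the study on A2780 cells, and 1 table of 6 libraries, 3 per group, was analysed. The authors deposited raw read counts per RefSeq transcript. Per the labels, the submitters' processing notes name HISAT2, Cufflinks and hg19 with no role, and the counter and use of strand are not given in the sources used here. Signal columns are the authors' group means, and fold, p-value and q-value columns hold the authors' own comparison; none was used. Groups and replicate numbers came from the sample titles.

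Counts were summed per symbol (46 symbols in the form of a date were replaced through the accession). The members and gene lists were chosen with earlier results of these data known. Low genes were removed with filterByExpr, TMM (trimmed mean of M-values) gave the scaling, and edgeR 4.0.16 (R 4.3.3) fitted a robust quasi-likelihood model with group as its single term. CPM are counts scaled to 1e+06 per TMM-scaled library. SE is the absolute log2 fold change divided by the square root of F. Adjusted p is Benjamini-Hochberg over all genes tested. Transcript usage was tested with diffSpliceDGE. The depth was 28294819 to 32939264 counts per library; the intervals come from the fit.

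Named genes are members past the adjusted p, the 10 with the most counts per kilobase, zinc finger and splicing-linked members, members that failed the filter, and at most 5 changed genes with the largest size of log2 fold change per other list; members beside these were named after their values were seen. A gene that this rule would name is not reported here. Alternatives were DESeq2 1.42.0 size factors and its Wald test, no filter, at least 10 counts per library, unscaled library sizes, upper-quartile scaling, limma-voom (limma 3.58.1), the replicate number as a block, the highest transcript per gene, and each library left out. Replicate numbers were not taken to pair the libraries. Correlations of deviations were 0.069, 0.0048 and 0.022 between libraries of the same number, and -0.052 to 0.030 between libraries of different number. On simulated counts the expression fit found 200 of 200 altered genes and made 9 false calls over 10695 genes. The usage test found 100 of 100 and made 10 false calls over 1000 genes. The simulated expression changes were larger than any change called in a member. Usage was simulated as opposite shifts in transcripts of equal level. Recovery of small falls, or of a shift in a minor transcript, was therefore not tested. Coordinates came from GENCODE release 44 on GRCh37, and RefSeq GRCh38.p14 gave promoters and numbers of messenger RNAs per gene.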

Additional observations from a re-analysis of the deposited data

How the results depend on the processing

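Over 16 alternatives, each member past the adjusted p kept its direction, and USP11, USP24, USP32, USP34, USP40 and USP53 stayed past it under all 16. The other 9 lost it under at least 1. Under upper-quartile scaling 9 members were lower and 3 higher, where 14% of all genes were lower and 19.4% higher. With library sizes only, 10 members were lower and 3 higher, where 15.4% of all genes were lower and 17.9% higher. With each library left out in turn, 8 to 11 were lower and 2 to 3 higher, the fewest lower without shUSP39 replicate 3. In these fits 14.6% to 16.5% of all genes were lower and 13.5% to 15.8% higher. With shUSP39 replicate 1 alone, whose single library is taken to vary like the others, 5 were lower and 1 higher; this leaves out the libraries that stood apart and also lowers the number of libraries, and the cause was not tested. With the replicate number as a block, 13 were lower and 3 higher, where 19.4% of all genes were lower and 17.8% higher. USP36 (adjusted p = 0.022) was added here, and not every sample correlated best with its own number. The number of members with changed transcript usage was 1, and 0 by the Simes test. With at least 10 counts in every library it was also 1, but the member was USP2, since a transcript of USP49 was removed; with each library left out it was 0 to 1, and the cause was not tested. USP2 had an adjusted p of 0.74 by its highest transcript alone. Depth limits members below 20 CPM.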

Other observations

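A few values lay outside the comparisons. USP4 had a second, minor transcript, NM_001251877.1, with 21, 10 and 20 counts in pGIPZ-NC and 5, 6 and 1 in shUSP39, which did not pass the filter and was not tested. Over the 36 tested members, Spearman's rho of the log2 fold change was -0.17 with exon number, 0.25 with transcript length and -0.11 with mean CPM; these are descriptions over genes that share the same libraries. The median number of exons was 19.5.

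The partner ATXN7L3, an adaptor that USP22, USP27X and USP51 bind, had 58, 51 and 49 counts in pGIPZ-NC and 22, 15 and 43 in shUSP39, which gave -0.96 as log2 fold change (SE 0.39, edgeR, adjusted p = 0.058). It was named after its values were seen.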
